A study of Homo sapiens with 12 samples.

Results

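The genes described here encode IL11 and other secreted inflammatory cytokines: the IL-6 family ligands IL11, IL6 and LIF, the IL-1 family ligand IL1B, the CXC chemokines IL8 (current symbol CXCL8), CXCL1, CXCL2 and CXCL3, and the colony-stimulating factor CSF2. They were chosen by symbol from a list of 10 cytokines that was itself drawn up from measured values, with the KO results of IL11 and CSF2 in MDA-MB-231 known. Of the 10 symbols, 9 had a row among the 11529 genes of the deposited expression table, and IL1A was not analysed here. The mRNA of 12 samples from 2 human triple-negative breast cancer cell lines, MDA-MB-231 and MDA-MB-468, was measured by RNA-seq to describe gene regulation after loss of SMARCA4. SMARCA4 encodes the BRG1 motor protein, which powers SWI/SNF remodelers in moving nucleosomes. Each line gave 3 control samples, labelled wild type, and 3 SMARCA4 KO samples. The KO cells of both lines carried a lentiviral lentiCRISPR-v2 construct with 1 guide against an early exon of SMARCA4 and were selected with puromycin. Per the study's methods these were polyclonal pools, not clones. The control samples have a wild-type genotype label and are also named Control. The study's protein blots used parental cells and, apart from them, cells with a nontargeting vector called control, and which of these the sequenced controls were is not given in the sources used here. Nothing says whether replicates came from separate cultures, so p-values measure the spread between these samples, which may be technical.

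IL-6 family cytokines bind a ligand-specific receptor, such as IL11RA for IL-11, and signal through the shared subunit gp130 (IL6ST) to JAK kinases and STAT3. IL-8 and the CXCL1 to CXCL3 chemokines attract neutrophils through the shared receptor CXCR2, and IL-8 also through CXCR1. IL-1β drives the NF-κB response through IL1R1 and IL1RAP, and CSF2 (GM-CSF) supports myeloid cells. Breast cancer cells can make several of these themselves, and IL11, IL6, IL8 and CSF2 are known for roles in bone metastasis, invasion and the recruitment of myeloid cells.

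The promoters of these genes hold short motifs for inflammatory transcription factors, and a stretch of each is shown because the members with similar motifs can then be set beside their levels. RefSeq (GRCh38.p14) had a promoter entry for 8 of the 9 measured members, all but LIF. Each line gives the 80 bases from 140 to 61 bases before the annotated start, 5′ to 3′ on the strand of the gene, with matches to the NF-κB core GGANNTTCC and the AP-1 motif TGANTCA in capitals. IL11 lies at chr19:55370524-55370603 on the minus strand, IL8 at chr4:73740429-73740508, IL6 at chr7:22727060-22727139, CXCL1 at chr4:73869253-73869332 and CSF2 at chr5:132073649-132073728, all but IL11 on the plus strand. CXCL2 lies at chr4:74099256-74099335, CXCL3 at chr4:74038750-74038829 and IL1B at chr2:112836840-112836919, all on the minus strand.
IL11: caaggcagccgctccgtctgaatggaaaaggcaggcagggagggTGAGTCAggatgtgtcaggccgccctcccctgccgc
IL8: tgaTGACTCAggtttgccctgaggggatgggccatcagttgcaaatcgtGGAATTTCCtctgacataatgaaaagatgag
IL6: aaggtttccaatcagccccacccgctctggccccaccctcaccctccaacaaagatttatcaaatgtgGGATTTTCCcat
CXCL1: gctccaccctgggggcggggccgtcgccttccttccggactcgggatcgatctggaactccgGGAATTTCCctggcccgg
CXCL2: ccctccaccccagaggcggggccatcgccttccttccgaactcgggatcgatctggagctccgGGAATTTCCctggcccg
CXCL3: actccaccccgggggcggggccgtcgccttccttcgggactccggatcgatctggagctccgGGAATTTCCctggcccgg
IL1B: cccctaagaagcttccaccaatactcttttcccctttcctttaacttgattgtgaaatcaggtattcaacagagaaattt
CSF2: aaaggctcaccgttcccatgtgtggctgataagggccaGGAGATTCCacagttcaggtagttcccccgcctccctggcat

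The stretches of CXCL1, CXCL2 and CXCL3 look nearly alike, with the same NF-κB core 77 or 78 bases before the start, and IL8 carries the same core 91 bases before its start. IL1B has neither motif. IL11 has no NF-κB core but an AP-1 match 96 bases before its start, and IL8 also has an AP-1 match at 137 bases. In the 300-base windows around the starts, searched on both strands, the NF-κB core matched 6 of the 8 members (IL6, IL8, CXCL1, CXCL2, CXCL3 and CSF2), against 4.57% of 35116 RefSeq promoters. The AP-1 motif matched 2 members, against 7.71% of the promoters. Another 6 of the 8 motifs searched were the NF-κB consensus (4 members, 5.91% of promoters), which overlaps the core, the C/EBP motif TTGCNNAA (3, 10.5%), the STAT motif TTCNNNGAA (2, 7.66%), the TATA box TATAAA (1, 11.5%), the CRE TGACGTCA (0, 1.85%) and the TEAD motif GGAATG (0, 14.03%). The motifs shown were picked with the matches known, and a match describes letters only.

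Each member had a higher mean in MDA-MB-231 control than in MDA-MB-468 control, and in the latter line 5 of the 9 averaged under 1 FPKM. All values are log2(FPKM + 1), that is per transcript length, so that levels of different genes can be compared. In MDA-MB-231 control, IL8 had the highest mean (7.72 ± 0.73, SD, n = 3), followed by CSF2 (7.05 ± 0.20), CXCL1 (6.65 ± 0.46), IL11 (6.57 ± 0.12) and IL6 (6.43 ± 0.62). Each neighbouring pair among these 5 overlapped in its sample values. CXCL2 (5.22 ± 0.53), LIF (4.52 ± 0.06), CXCL3 (3.76 ± 0.34) and IL1B (2.45 ± 0.12) followed, with no overlap between neighbours. In MDA-MB-231 KO the order was the same except for IL11, which dropped to the 7th place between LIF and CXCL3. In MDA-MB-468 control, LIF came first (3.46 ± 0.28) and IL8 next (2.56 ± 0.23), and IL11, IL1B, CXCL3 and CSF2 stayed under 1 FPKM in all 6 samples of that line. CSF2 was listed at 0 in 3 of those 6 samples and IL1B in 3, all of them KO for IL1B.

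**Figure D1:**
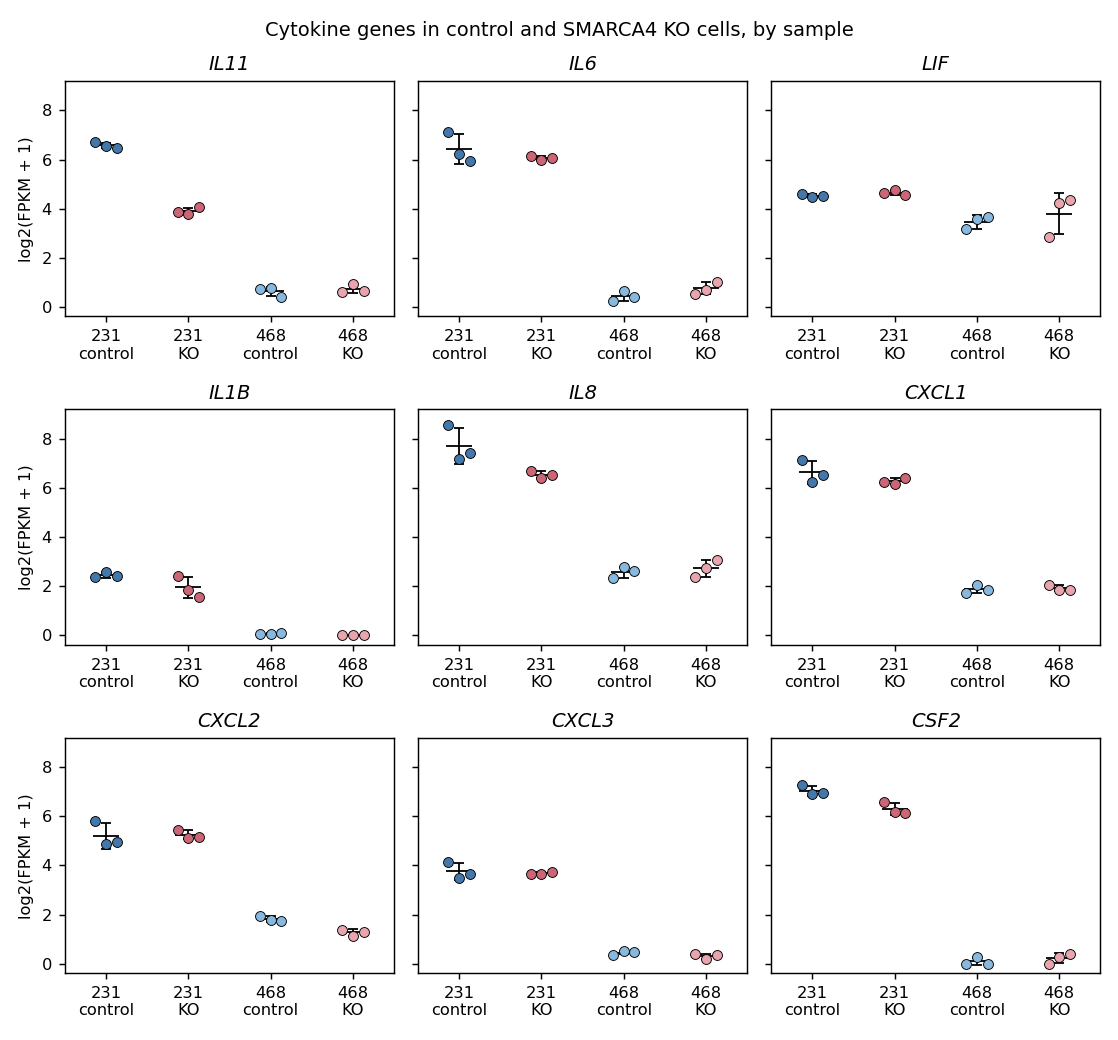
Levels of the 9 cytokine genes in each sample on the log2(FPKM + 1) scale; each point is 1 sample, the long bar is the group mean and the whiskers are ± 1 SD (n = 3 per group). The 3 MDA-MB-231 KO samples of IL11 lie between 3.80 and 4.05, below the control samples at 6.47 to 6.71, and every member is higher in MDA-MB-231.

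SMARCA4 itself was checked first. Its level was 6.12 ± 0.05 in MDA-MB-231 control and 4.55 ± 0.09 in KO, and 6.64 ± 0.04 in MDA-MB-468 control and 5.48 ± 0.13 in KO, so the KO samples kept 32.7% and 44.3% of the control FPKM. Of the markers for other cell types, the epithelial genes (5 of 5 listed) and mesenchymal genes (3 of 3) had rows, whereas fibroblast (0 of 5) and endothelial markers (0 of 3) were not analysed here. VIM was high in MDA-MB-231 control (10.35 ± 0.10) and low in MDA-MB-468 control (1.82 ± 0.35), and CDH1 was the reverse (0.33 ± 0.17 and 5.50 ± 0.20). Of 7 leukocyte markers, only CD14 and CD68 had a row. In MDA-MB-231, KO samples were all lower than control samples for VIM (log2 change -0.39, limma adjusted p = 0.031, under the fold cutoff) and FN1 (-0.47, limma adjusted p = 0.062). CDH1 rose (0.54, limma adjusted p = 0.044) at a low level, from 0.33 ± 0.17 to 0.87 ± 0.16. KRT8 was higher in all KO samples (8.54 ± 0.35 and 8.97 ± 0.06). The mesenchymal ZEB1 (3.69 ± 0.13 and 3.71 ± 0.10) and the epithelial EPCAM (3.89 ± 0.22 and 3.90 ± 0.15), KRT18 and KRT5 overlapped between the groups. In MDA-MB-468, all KO samples were higher for KRT8 (10.65 ± 0.02 and 11.14 ± 0.12) and KRT18 (10.11 ± 0.02 and 10.36 ± 0.12). They were all lower for EPCAM (8.24 ± 0.02 and 8.15 ± 0.04), and CDH1, KRT5, VIM, ZEB1, FN1 and CD14 overlapped there. CD68 was higher in all KO samples of both lines. CD14 rose with KO in MDA-MB-231 from 1.16 ± 0.33 to 3.98 ± 1.18 FPKM (limma adjusted p = 0.029), and the part of these markers in the cytokine values was not tested. In bulk samples such as these, fewer cells making a transcript and less of it per cell cannot be told apart.

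KO against control in MDA-MB-231 asked which genes change with SMARCA4 loss in the mesenchymal-like line. Because the members were selected on this contrast, their values and DEG status are given as a description, with no p-value and nothing inferred from either. IL11 had the lowest log2 change of all 11529 genes. CSF2 and IL8 were also lower in every KO sample than in every control sample, and the other 6 members overlapped between the groups. The share of all genes without such overlap was not counted, so this separation describes these genes only. By limma, 31.2% of all genes had an unadjusted p under 0.05 in this contrast. Under the DEG cutoffs of the study (adjusted p under 0.05 over all genes and an absolute log2 change over 0.5), 2 of the 9 members, IL11 and CSF2, were DEGs, beside 3.7% of all genes, and both were lower in KO, beside 1.31% of all genes.

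IL11 encodes a gp130 cytokine and lies in GRCh37 on chromosome 19 from 55875750 to 55881831, on the minus strand. Its level was 6.71, 6.54 and 6.47 in the 3 control samples and 3.85, 3.80 and 4.05 in the 3 KO samples of MDA-MB-231. The groups were separated by a gap of 2.42, many times the spread within either. The log2 change was -2.67 (SE 0.09), from a mean of 94.4 to 13.98 FPKM, so that KO samples kept 14.8% of the control FPKM. Leaving out each sample in turn gave log2 changes from -2.75 to -2.60.

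The other gp130 ligands did not show this separation. IL6 was 7.13, 6.23 and 5.93 in control and 6.14, 5.97 and 6.06 in KO. One control sample was well above the rest and the others overlapped the KO samples, and the log2 change was -0.37 (SE 0.30). LIF, which signals through LIFR and gp130, was 4.58, 4.48 and 4.49 in control and 4.62, 4.75 and 4.56 in KO. These values overlapped, with a log2 change of 0.12 (SE 0.07). IL1B, the inflammasome-processed IL-1 ligand, was 2.36, 2.58 and 2.42 in control and 2.43, 1.83 and 1.57 in KO. One KO sample lay within the control range and 2 below it, and the log2 change was -0.51 (SE 0.22). It was -0.75 without KO replicate 1 and -0.32 without KO replicate 3.

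IL8, CXCL1, CXCL3 and CXCL2 lie within 358.7 kb of chromosome 4 (GRCh37, from 74606236 to 74964913), and their products share the neutrophil receptor CXCR2. The level of IL8 was 8.55, 7.19 and 7.43 in control and 6.68, 6.39 and 6.55 in KO. All KO samples lay below all control samples, with a log2 change of -1.18 (SE 0.36). CXCL1 was 7.16, 6.25 and 6.53 in control and 6.24, 6.18 and 6.41 in KO, which overlapped and gave a log2 change of -0.37 (SE 0.23). CXCL2 was 5.83, 4.87 and 4.95 in control and 5.46, 5.11 and 5.18 in KO, and CXCL3 was 4.14, 3.49 and 3.65 in control and 3.65, 3.64 and 3.73 in KO. Both overlapped, with log2 changes of 0.03 (SE 0.27) and -0.08 (SE 0.17). Values of CXCL1, CXCL2 and CXCL3 are uncertain to a degree because their transcripts are similar: 10.1% of the 50-base words of the CXCL2 transcript also occur in another member, as do 5.33% for CXCL1 and 5.26% for CXCL3, and none for IL8.

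CSF2, on chromosome 5 (GRCh37, 131409482 to 131411863), was 7.28, 6.91 and 6.96 in control and 6.59, 6.16 and 6.15 in KO. All KO samples were lower than all control samples, by a log2 change of -0.75 (SE 0.16), which left 59.4% of the control FPKM. CSF2 did not reach the DEG cutoffs when any of the 6 samples was left out, with log2 changes between -0.89 and -0.63.

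**Figure D2:**
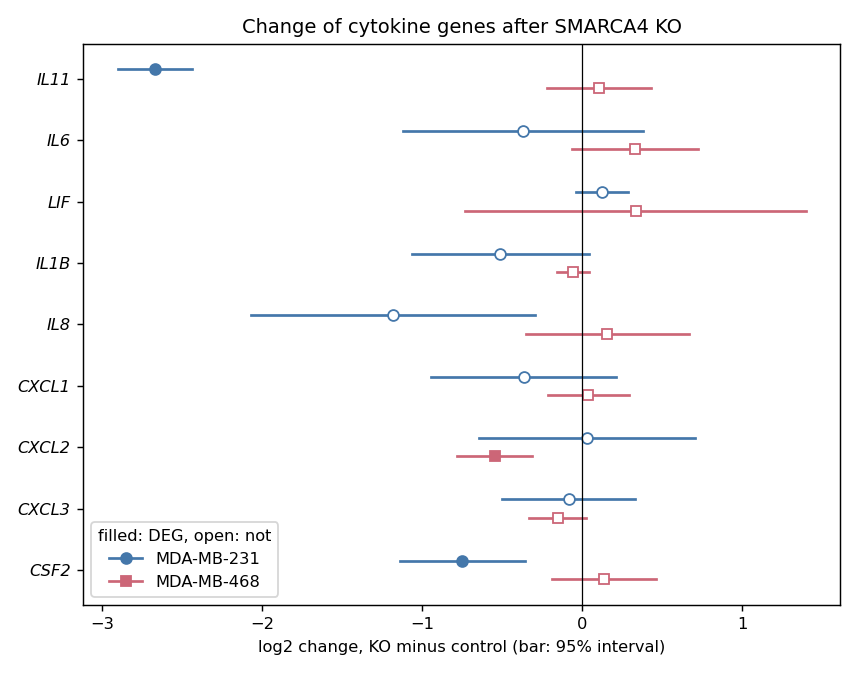
Log2 change with SMARCA4 KO (KO minus control) of the 9 cytokine genes in MDA-MB-231 (circles) and MDA-MB-468 (squares); horizontal bars are 95% intervals from limma and filled symbols met the DEG cutoffs. IL11 stands at -2.67 in MDA-MB-231 and at 0.10 in MDA-MB-468, and the filled symbols are IL11 and CSF2 in MDA-MB-231 and CXCL2 in MDA-MB-468. The MDA-MB-468 squares of CSF2 and IL1B rest on values near 0 and are not read.

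Part of the MDA-MB-231 values turned on 1 sample. Control replicate 1 was the highest of its group for 8 of the 9 members, all but IL1B, whereas 30.4% of all genes were highest in that sample. It exceeded the mean of the other 2 control samples by 1.24 on the log2 scale for IL8, 1.04 for IL6, 0.92 for CXCL2, 0.77 for CXCL1 and 0.57 for CXCL3. The excess was smaller for CSF2 (0.35), IL11 (0.20) and LIF (0.10), and the median over all genes was -0.02. Without that sample the log2 change was -2.60 for IL11, -0.77 for IL8, -0.63 for CSF2, -0.02 for IL6, -0.11 for CXCL1, 0.34 for CXCL2 and 0.10 for CXCL3. The small changes of IL6 and the CXCL genes therefore depended on it, and IL11 did not. IL8 met the DEG cutoffs without this sample (SE 0.12) and missed them with it (SE 0.36). It also met them with all samples when 1 fit of all 12 was used (SE 0.29).

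**Figure D3:**
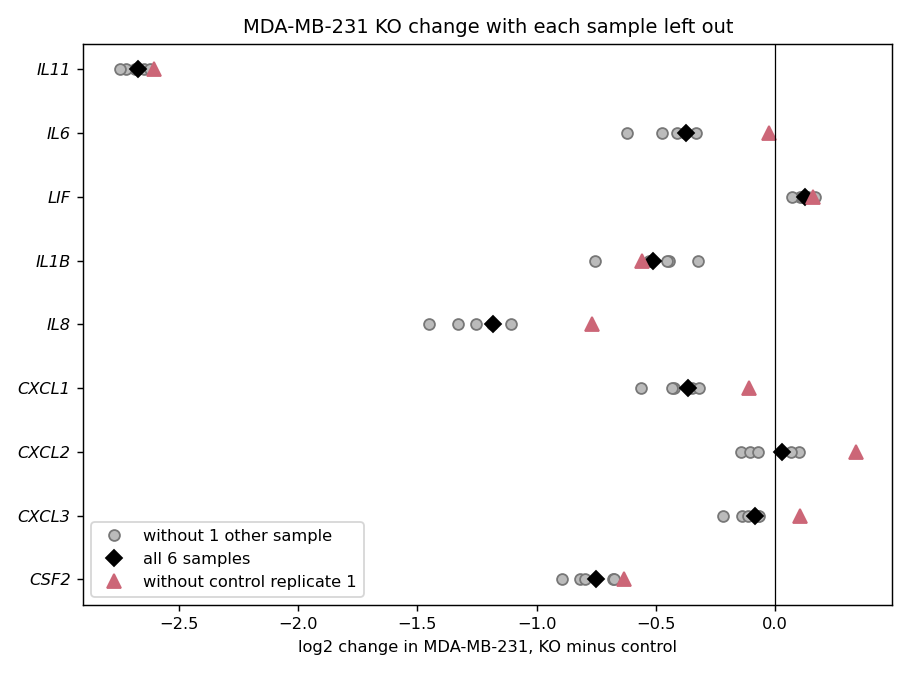
Log2 change with KO in MDA-MB-231 with all 6 samples (diamonds), without control replicate 1 (triangles) and without each of the other samples (gray circles). The IL11 symbols span -2.75 to -2.60, whereas those of CXCL2 span -0.14 to 0.34 and cross 0.

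KO against control in MDA-MB-468, the second line, was not used to choose the members and was tested. Of the 9 members, 1, CXCL2, was a DEG, beside 2.14% of all genes. CXCL2 was 1.96, 1.78 and 1.72 in control and 1.39, 1.13 and 1.30 in KO, so the groups did not overlap. The log2 change was -0.55 (SE 0.09, 95% interval -0.78 to -0.31, limma adjusted p = 0.044), from 2.54 to 1.42 FPKM. It lay at the edge of the cutoffs: in a fit blocked by replicate number its adjusted p was 0.050, just over the limit, and leaving out any 1 sample other than KO replicate 1 gave adjusted p of 0.095 to 0.14, with log2 changes of -0.60 to -0.48. IL11 was 0.71, 0.76 and 0.41 in control and 0.61, 0.94 and 0.64 in KO. These values overlapped, and the log2 change of 0.10 had a 95% interval of -0.22 to 0.43 (limma adjusted p = 0.66), at a level under 1 FPKM.

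The remaining members did not pass the test in MDA-MB-468. LIF, the highest member there, was 3.15, 3.57 and 3.67 in control and 2.83, 4.22 and 4.34 in KO. KO replicates 2 and 3 lay above all control samples and KO replicate 1 below them, and the log2 change of 0.34 had a wide 95% interval, -0.73 to 1.40 (limma adjusted p = 0.67), and became 0.82 without KO replicate 1. IL8 was 2.31, 2.77 and 2.61 in control and 2.36, 2.75 and 3.06 in KO, with a log2 change of 0.16 (-0.35 to 0.67). CXCL1 was 1.73, 2.05 and 1.86 in control and 2.05, 1.85 and 1.85 in KO, with a log2 change of 0.04 (-0.21 to 0.29). Both overlapped between the groups. IL6 was 0.21, 0.62 and 0.41 in control and 0.54, 0.69 and 1.01 in KO, a log2 change of 0.33 (-0.06 to 0.72), and CXCL3 was 0.37, 0.51 and 0.48 in control and 0.38, 0.18 and 0.33 in KO, a log2 change of -0.15 (-0.33 to 0.03). CSF2 was listed at 0 in 2 control samples and 1 KO sample, with 0.26 in the third control and 0.26 and 0.41 in the other KO samples. IL1B was 0.03, 0.06 and 0.08 in control and listed at 0 in all KO samples. For CSF2 and IL1B no log2 change is given here, since such values cannot be separated from 0 without the read depth. IL6, CXCL3 and IL11 also averaged under 1 FPKM in MDA-MB-468, so their log2 changes carry the same limit.

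The difference of the KO change between the lines (MDA-MB-468 minus MDA-MB-231) includes the contrast that chose the members and is again a description. It was 2.78 (SE 0.17) for IL11, 1.34 (SE 0.41) for IL8 and 0.89 (SE 0.21) for CSF2. These 3 of the 9 members met an adjusted p under 0.05, beside 14.7% of all genes. CXCL2 was the member with the most negative difference, -0.58 (SE 0.29), and LIF, CXCL3, CXCL1, IL1B and IL6 ranged from -0.07 to 0.70. Without MDA-MB-231 control replicate 1 the difference of CXCL2 was -0.89, without MDA-MB-231 KO replicate 1 that of IL1B was 0.70, and without MDA-MB-468 KO replicate 1 that of LIF was 0.70, each then at an adjusted p under 0.05. A low level in MDA-MB-468 limits how far IL11 or CSF2 could fall there on this scale. For CSF2 and IL1B, each listed at 0 in 3 of the 6 MDA-MB-468 samples, the difference includes a change that cannot be separated from 0.

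Between the lines, control MDA-MB-468 was lower than control MDA-MB-231 in every sample for each member. The share of all genes separated like this was not counted, and by limma 85.5% of all genes had an unadjusted p under 0.05 here. The table had been filtered by the authors on mean and SD over all samples. The 5 members that averaged under 1 FPKM in MDA-MB-468 therefore kept their rows through MDA-MB-231 and had to differ. LIF, IL8, CXCL1 and CXCL2 averaged over 1 FPKM in MDA-MB-468, so the limit on the mean did not force a difference for them. The limit on the SD was also 1 FPKM. CXCL1 (2.31 to 3.13 FPKM) and CXCL2 (1.19 to 2.88 FPKM) varied by less than that SD within MDA-MB-468. These members therefore also kept their rows through MDA-MB-231. With most members bound in this way, the number of members that differed is no result. The genes that met the cutoffs were 64.2% of all genes, 31.4% of all genes being lower in MDA-MB-468. For IL11 the log2 difference was -5.94 (SE 0.12), with 87.6 to 103.4 FPKM in MDA-MB-231 and 0.33 to 0.69 FPKM in MDA-MB-468. IL6 differed by -6.01 (SE 0.24), IL8 by -5.16 (SE 0.29), CXCL1 by -4.77 (SE 0.18), CXCL2 by -3.40 (SE 0.21), CXCL3 by -3.31 (SE 0.13), CSF2 by -6.96 (SE 0.15) and IL1B by -2.40 (SE 0.16). The pseudocount of 1 limits the difference of members near 0 in MDA-MB-468, so these values do not rank those members. Over the alternatives, which include another pseudocount, IL1B reached -5.04 and CXCL2 -3.79. LIF was the member least different between the control groups (-1.06, SE 0.31, limma adjusted p = 0.0066).

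In the KO samples the same line contrast (62.8% of all genes, and 29.7% lower in MDA-MB-468) was -3.17 (SE 0.12) for IL11, with 12.9 to 15.6 FPKM in MDA-MB-231 and 0.53 to 0.92 FPKM in MDA-MB-468. It was -3.82 (SE 0.29) for IL8, -6.08 (SE 0.15) for CSF2 and -5.31 (SE 0.24) for IL6. CXCL1 gave -4.36, CXCL2 -3.98 and CXCL3 -3.38. LIF gave -0.85 (SE 0.31, limma adjusted p = 0.022). It fell under the cutoffs without MDA-MB-468 KO replicate 1 (-0.36) and, by its adjusted p of 0.060, without MDA-MB-231 KO replicate 2 (-0.79). A fit of only the 6 KO samples also lost it (limma adjusted p = 0.056).

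Among 11527 genes compared with IL11 over the 12 samples, the nearest in pattern was IL8, with a root mean square difference of 0.62 between log2 values centred on each gene's mean. The next were LAPTM5 (0.65), COL8A1 (0.66), ESAM (0.66) and GLIPR1 (0.67), and the median gene differed by 2.49. These 5 share the wide gap between the lines and a lower level with KO in MDA-MB-231. Each differed less than IL11 there: COL8A1, a collagen chain, had means of 5.24 and 4.35 in MDA-MB-231 control and KO, LAPTM5 5.24 and 4.32, ESAM, an adhesion molecule, 6.28 and 5.21, and GLIPR1 5.03 and 4.18. The 12 samples share 4 groups, and the likeness rests mainly on the difference between the lines.

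The wider cytokine pathway was described from lists of receptors, signalling proteins, other cytokines and regulators, of which 109 of 184 genes had a row. In MDA-MB-231, 4 of the 109 rose and 3 fell, beside 275 and 151 of all 11529 genes, with a median log2 change of -0.06 against -0.0064 over all genes. In MDA-MB-468, 3 rose and 1 fell, beside 153 and 94 of all genes, with a median of 0.06 against 0.016. These lists were compiled with earlier results known, and apart from the receptors, genes were named from them mainly because they passed the cutoffs. The counts, and the adjusted p-values of the named genes below, therefore describe them only.

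Among the receptors of the IL-6 family, IL11RA, the receptor of IL-11, rose in MDA-MB-231, where its ligand was lower. Its mean went from 1.67 ± 0.09 to 2.38 ± 0.07, a log2 change of 0.71 (SE 0.07, limma adjusted p = 0.0083), and all KO samples were above all control samples. In MDA-MB-468 it was 3.18 ± 0.20 and 3.53 ± 0.22, with a log2 change of 0.35 (limma adjusted p = 0.22), and the difference between the lines did not pass the interaction test (limma adjusted p = 0.16). gp130 (IL6ST) had log2 changes of -0.07 and -0.0016 and LIFR of -0.20 and -0.05 in MDA-MB-231 and MDA-MB-468, neither past the test. IL6R, CXCR1, CXCR2, CSF2RA and CSF2RB were not analysed here.

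SOCS2, a feedback inhibitor of cytokine signalling, moved in opposite directions in the lines. It fell in MDA-MB-231 from 2.39 ± 0.29 to 0.95 ± 0.08 (log2 change -1.44, SE 0.15, limma adjusted p = 0.0097) and rose in MDA-MB-468 from 0.64 ± 0.12 to 1.57 ± 0.04 (log2 change 0.93, SE 0.07, limma adjusted p = 0.014). The difference between the lines was 2.37 (SE 0.17, limma adjusted p = 2.7e-05). Its level was low, at most 5.23 FPKM in any sample. SOCS2 missed the cutoff in MDA-MB-231 without KO replicate 2 (limma adjusted p = 0.051), and in MDA-MB-468 without control replicate 1 or 2 or KO replicate 2 or 3 (0.051 to 0.075). PIM1, a kinase gene induced by STAT signalling, rose in MDA-MB-468 from 3.39 ± 0.23 to 4.38 ± 0.15 (log2 change 0.98, SE 0.14, limma adjusted p = 0.032), and had a log2 change of 0.41 in MDA-MB-231, under the fold cutoff.

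Other secreted factors changed in MDA-MB-231 in both directions. CXCL16 rose from 1.93 ± 0.30 to 3.06 ± 0.29 (log2 change 1.13, SE 0.20, limma adjusted p = 0.030), CCL2, a monocyte chemoattractant, from 2.57 ± 0.14 to 3.57 ± 0.27 (1.0, SE 0.15, limma adjusted p = 0.020), and CSF1, the macrophage growth factor, from 7.36 ± 0.01 to 8.02 ± 0.14 (0.66, SE 0.08, limma adjusted p = 0.012). IL18, an IL-1 family ligand, fell from 3.74 ± 0.28 to 3.09 ± 0.06 (-0.66, SE 0.14, limma adjusted p = 0.046). The chemokine receptor gene CXCR4 fell from 4.16 ± 0.07 to 1.78 ± 0.22 (-2.38, SE 0.12, limma adjusted p = 0.0030). CXCR4 was listed at 0 in the control samples of MDA-MB-468.

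When a sample was left out, CXCR4 and IL11RA met the cutoffs in all 6 cases. CXCL16 met them in 0 of 6 cases (limma adjusted p 0.054 to 0.099), IL18 only without control replicate 1, CCL2 only without control replicate 1 or KO replicate 1, and CSF1 in all cases except without KO replicate 1 or 2 (0.052 and 0.062). In MDA-MB-468, KITLG, the ligand of the KIT receptor, fell from 6.16 ± 0.16 to 5.46 ± 0.17 (-0.71, SE 0.12, limma adjusted p = 0.040), and JUND, an AP-1 subunit, rose from 5.59 ± 0.11 to 6.13 ± 0.11 (0.54, SE 0.08, limma adjusted p = 0.036). In the fit blocked by replicate number, the limma adjusted p of JUND was 0.055. KITLG and PIM1 stayed within the cutoffs only without KO replicate 1 of the 6 samples, and JUND in none.

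**Figure D4:**
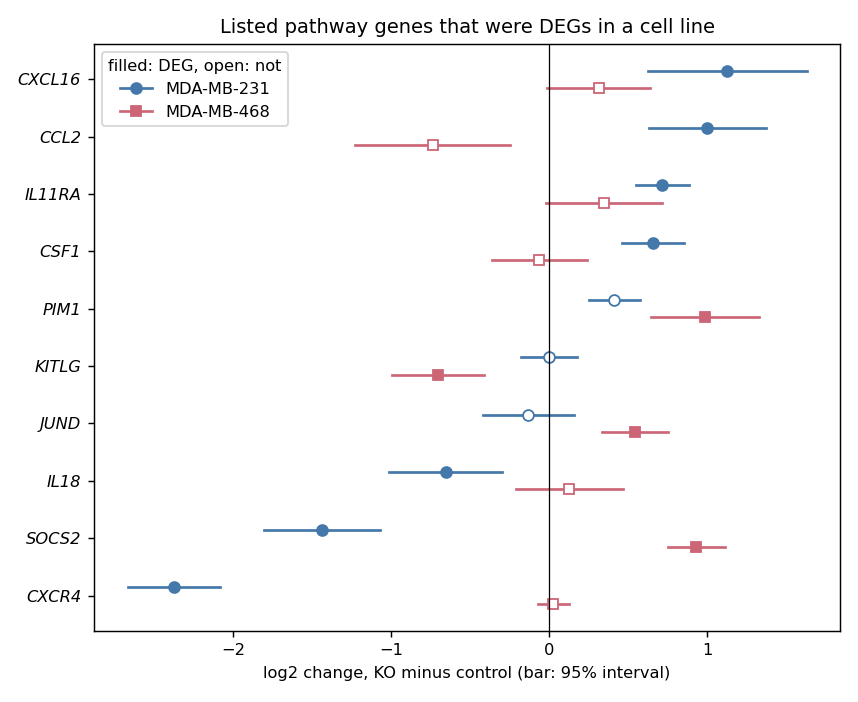
Log2 change with SMARCA4 KO of the listed pathway genes that met the DEG cutoffs in at least 1 line, for MDA-MB-231 (circles) and MDA-MB-468 (squares), with 95% intervals and filled symbols for DEGs. SOCS2 lies at -1.44 in MDA-MB-231 and 0.93 in MDA-MB-468, and CXCR4 at -2.38 in MDA-MB-231.

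The regulator lists are given beside all genes, of which 3.7% in MDA-MB-231 and 2.14% in MDA-MB-468 were DEGs, and 31.2% and 25.1% had an unadjusted p under 0.05. With so few DEGs in all, counts of 0 say little about these lists. None of 18 measured NF-κB subunits and inhibitors was a DEG by limma in either line, with 4 at an unadjusted p under 0.05 in MDA-MB-231 and 8 in MDA-MB-468. Among 14 genes of AU-rich mRNA decay, 0 were DEGs by limma in either line (3 and 2 at an unadjusted p under 0.05). The AP-1 and C/EBP list held 16 measured genes, of which 0 were DEGs in MDA-MB-231 (3 at an unadjusted p under 0.05, limma) and JUND alone in MDA-MB-468. On the IL-1 side, 0 of 12 receptors and signalling genes and 0 of 13 maturation genes were DEGs by limma in either line (4 and 5 at an unadjusted p under 0.05 in MDA-MB-231, 3 and 3 in MDA-MB-468). IL1R1, the signalling receptor of IL-1, had a mean of 2.65 ± 0.26 and 3.24 ± 0.10 in MDA-MB-231 control and KO (log2 change 0.59, limma adjusted p = 0.051) and of 3.09 ± 0.14 and 2.71 ± 0.22 in MDA-MB-468 (-0.38, limma adjusted p = 0.15). These changes differed between the lines by -0.97 (SE 0.20, limma adjusted p = 0.0089). Its partner IL1RAP had log2 changes of -0.18 and -0.0080.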

How the data were processed

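RNA was sequenced from stranded mRNA libraries of 12 samples. Per the labels and the study's methods, the authors aligned reads to hg19 with STAR, estimated FPKM with RSEM and kept genes with an average and SD of FPKM of at least 1. The deposited values are log2(FPKM + 1), on a log2 scale with a pseudocount of 1. Read depth is unknown, so counting error cannot be given. Groups came from the sample labels. KO was compared with control within each line by limma 3.58.1 (R 4.3.3), 3 samples against 3, with Benjamini-Hochberg adjustment over 11529 genes and the cutoffs of adjusted p under 0.05 and an absolute log2 change over 0.5. The interaction (adjusted p under 0.05 alone) and the line contrasts used 1 fit of all 12 samples. FPKM was recovered as 2 to the value minus 1. The fits were tested on simulated data.

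The members and gene lists were chosen with earlier results of these data known. All members, SMARCA4, up to 6 genes per list past the cutoffs, the receptors of the members and the 5 genes most like IL11 were named. Promoters came from RefSeq (GRCh38.p14), gene positions and transcripts from GENCODE release 44 on GRCh37. In MDA-MB-468, samples with the same replicate number deviated together (correlations of 0.25, 0.16 and 0.12), and in MDA-MB-231 they did not (-0.05, 0.07 and -0.12). The main fits of both lines used no pairing, and fits blocked by replicate number are given as alternatives. The alternatives were another pseudocount, a filter on low values, 2 scalings, an intensity trend, a higher fold limit, replicate blocks, other sample sets and leaving out each sample.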

Additional observations from a re-analysis of the deposited data

Results flagged for a closer look

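For 3 of the 9 members the KO change differed between MDA-MB-468 and MDA-MB-231 by limma's interaction test at an adjusted p under 0.05, beside 14.7% of all genes. The difference of the log2 changes was 2.78 for IL11, 1.34 for IL8 and 0.89 for CSF2. All 3 were chosen or are described with the MDA-MB-231 change known, so these are descriptions. IL11 kept this call in all of its alternatives, with differences of 2.66 to 2.999. IL8 lost it with a pseudocount of 0.1 (1.37), with either scaling and without any 1 of 9 samples. CSF2 lost it with a pseudocount of 0.1 (1.46), and its MDA-MB-468 values were near 0.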

How the results depend on the processing

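Fewer genes passed at an absolute log2 change over 1: 85 in MDA-MB-231 (1 member), 53 in MDA-MB-468 (0 members), 4148 between controls and 3996 between KO samples. In MDA-MB-231, 1 member was called with 75th percentile scaling and 1 with quantile normalization. In that line, control and KO samples of the same replicate number also carry the same p number in their descriptions. Whether they were paired is not given, and their deviations did not go together. With the replicate block in that line, limma called 0 genes and 0 members (3126 genes and 3 members at an unadjusted p under 0.05). IL11 thus lost its call, and its log2 change of -2.67 could not move, since a block leaves log2 changes unaltered in this balanced design. In MDA-MB-468, the replicate block called 241 genes, 0 of them members (1 member at an unadjusted p under 0.05), and, of the results described, changed only the calls of CXCL2 and JUND. A block by the p number of the descriptions called 0 genes and 0 members there (2218 and 2 at an unadjusted p under 0.05). A fit of all 12 samples called 537 genes there, and 0 members. The interaction called 656 genes with the p number block and 1 member with a pseudocount of 0.1. A replicate block across lines, added after seeing the data, called 7403 genes between controls and 7241 between KO samples, and 9 members in each. Deviations of same-numbered samples of the 2 lines correlated by -0.10 to 0.01 in controls and 0.02 to 0.18 in KO samples.

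Leaving out each sample gave 99 to 311 genes and 1 to 2 members in MDA-MB-231, 0 to 474 genes (2023 to 3245 at an unadjusted p under 0.05) and 0 to 1 member in MDA-MB-468, and 924 to 1897 genes and 2 to 4 members in the interaction. The KO line contrast then called 8 to 9 members. Directions turned only for small log2 changes. Without 1 sample, CXCL3 ranged from -0.22 to 0.10 and CXCL2 from -0.14 to 0.34 in MDA-MB-231. In MDA-MB-468, IL11 ranged from -0.0033 to 0.17, CXCL1 from -0.036 to 0.12 and IL8 from -0.0099 to 0.34. In the interaction, CXCL3 ranged from -0.26 to 0.065 and LIF from -0.061 to 0.70. IL11 in MDA-MB-468 also turned with quantile normalization (-0.015). The causes were not tested. Scaling moved the median of all genes by under 0.1. IL1B was dropped by the filter on low values. The unknown depth limits what can be said of members under 1 FPKM.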
